A study of Mus musculus with 6 samples.

Results

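A set of 10 genes, studied less often in skin than keratins or envelope proteins, was followed in mouse back skin that lacks Get1. They are Slc46a2, Adgrf4, Gdpd3, Adtrp, Cpm, Elmod1, Eps8l1, Dapl1, Fetub and Lgi2. Their probe sets were taken by gene symbol, which gave 14 of the 45037 probe sets that are not controls, for 10 of the 18193 genes that the annotation names alone, with 2 probe sets each for Slc46a2, Lgi2, Cpm and Eps8l1 and 1 for each of the others. The genes were chosen from the measured difference between the genotypes in these same arrays, so that difference is described below without a test. Total RNA came from 3 Get1 -/- and 3 Get1 +/+ mouse embryos at e18.5 (e18 in the sample labels), with the same area of back skin taken from each animal and 1 array per animal. The labels give no strain, sex or litter, and do not say which part of the Get1 gene was removed.

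Get1 is the older name of Grhl3, a grainyhead-like transcription factor of the epidermis. Grainyhead-like factors bind DNA at the sequence AACCGGTT and close variants of it, and in the mouse Grhl3 is needed for the skin barrier and for closure of the neural tube and of wounds. Late in gestation the epidermis builds its barrier: keratinocytes leave the basal layer, flatten, fill with keratin and lipid, and die as corneocytes. The genes followed here encode membrane transport and receptor proteins, enzymes that act on lipids and peptides, regulators of small GTPases and actin, and secreted proteins.

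Values are MAS5 signals in arbitrary units, scaled by the authors to the same mean on every array, and a signal of one probe set cannot be set against that of another. Probe sets at or above the median of the mean log2 signal, a signal of 137, were kept for fits across the array, which left 22519. Correlations between arrays over these ran from 0.916 to 0.971. Markers of both layers of skin were present: all 6 basal and all 8 suprabasal keratinocyte markers and all 7 dermal fibroblast markers were kept. Signal ratios of the 3' to the 5' probe set, a sign of RNA integrity, ran from 1.36 to 1.49 for beta-actin in Get1 -/- skin. They ran from 1.35 to 1.37 in Get1 +/+ skin. The highest were 1.44 and 1.49, on Get1 -/- replicates 1 and 2. For Gapdh the ratios were 0.73 to 0.84 in Get1 -/- skin and 0.69 to 0.81 in Get1 +/+ skin. A part of RNA integrity in the differences below was not tested. The Grhl3 probe set read 246, 413 and 379.7 in Get1 -/- skin, against 478, 934 and 670.1 in Get1 +/+ skin, a log2 difference of -0.98 ± 0.29 (SE). A probe set outside the removed part would not check the genotype.

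Promoter sequences are shown for 4 of the genes, Slc46a2 as the gene with the lowest ratio of Get1 -/- to Get1 +/+ signal and Adgrf4, Dapl1 and Fetub as those with a match to a motif that was searched. The RefSeq promoter table of build GRCm38.p6 held 13 windows for 9 of the 10 genes and none for Elmod1. Each sequence is the 250 bases before an annotated transcript start, read 5' to 3' on the strand of the gene, at chr4:59915057-59915306 (minus strand) for Slc46a2, chr17:42692285-42692534 (minus) for Adgrf4, chr2:59484403-59484652 (plus) for Dapl1 and chr16:22918132-22918381 (plus) for the upstream of the Fetub starts. Capitals mark matches to TGANTCA, the motif of AP-1 factors, and to TATAAA, the TATA box, on either strand.
Slc46a2: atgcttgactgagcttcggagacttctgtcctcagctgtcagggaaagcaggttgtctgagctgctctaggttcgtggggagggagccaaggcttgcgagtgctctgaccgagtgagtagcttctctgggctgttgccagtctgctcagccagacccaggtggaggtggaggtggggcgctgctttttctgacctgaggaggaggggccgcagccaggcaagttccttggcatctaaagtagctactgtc
Adgrf4: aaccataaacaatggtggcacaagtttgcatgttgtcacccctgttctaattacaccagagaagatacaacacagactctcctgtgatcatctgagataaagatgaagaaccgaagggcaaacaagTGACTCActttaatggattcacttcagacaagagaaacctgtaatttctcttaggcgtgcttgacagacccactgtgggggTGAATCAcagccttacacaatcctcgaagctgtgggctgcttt
Dapl1: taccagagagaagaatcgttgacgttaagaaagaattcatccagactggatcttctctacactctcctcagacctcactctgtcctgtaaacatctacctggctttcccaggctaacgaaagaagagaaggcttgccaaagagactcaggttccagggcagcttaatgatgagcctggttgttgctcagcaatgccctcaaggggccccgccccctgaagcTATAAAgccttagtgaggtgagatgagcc
Fetub: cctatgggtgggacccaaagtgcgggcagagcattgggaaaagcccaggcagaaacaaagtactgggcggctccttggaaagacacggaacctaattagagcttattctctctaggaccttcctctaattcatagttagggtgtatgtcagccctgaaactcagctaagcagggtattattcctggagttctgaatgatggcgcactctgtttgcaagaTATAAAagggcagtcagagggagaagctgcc

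Neither AACCGGTT nor the looser AACNNGTT, which includes it, was present in any of the 13 windows on either strand. Over all 32851 windows of the same length in the table, 0.116% held AACCGGTT and 3.64% held AACNNGTT. TGANTCA was in 1 of the 13 windows, that of Adgrf4, where it occurred 2 times, at 124 and 43 bases before the start, and it was in 6.75% of all windows. TATAAA was in 2 of the 13, beginning 29 bases before the Dapl1 start and 31 before the Fetub start, and in 12.4% of all windows. These windows are short, and nothing about distant sites follows from them. The genes lie on 9 chromosomes, with Gdpd3 and Eps8l1 both on chromosome 7. Slc46a2 is the only one on chromosome 4, where Grhl3 lies, and the RefSeq gene table places 1362 genes between the pair.

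Of the 10 genes, 8 had lower values in Get1 -/- skin, by 2.06-fold to 4.41-fold. The others, Fetub and Lgi2, had higher values, by 4.69-fold and 2.28-fold, and both of these folds rest on low Get1 +/+ signals. The lower genes span a membrane transporter, a receptor, 3 enzymes, a pair of cytoskeletal or GTPase regulators and a differentiation-linked protein. In the best measured probe set of each of these 8 genes, all 3 Get1 -/- arrays lay below all 3 Get1 +/+ arrays, and in those of Fetub and Lgi2 they lay above. Across the array 6.51% of kept probe sets were lower without overlap and 4.63% higher without overlap, and with a mean difference of at least 2-fold besides these shares were 0.511% and 0.258%. All 10 genes met both conditions, which follows from how they were chosen. In whole skin, fewer cells of a type and less RNA per cell cannot be told apart.

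**Figure D1:**
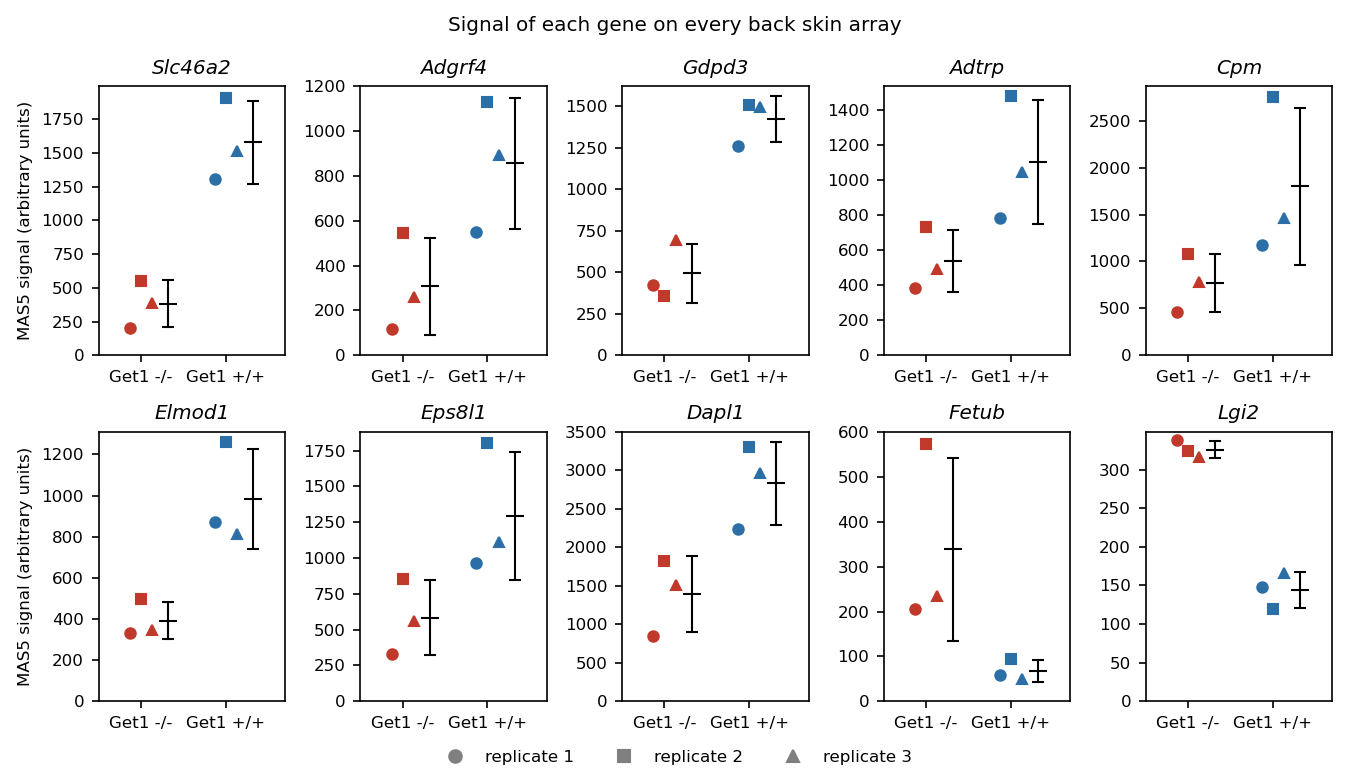
MAS5 signal (y axis, arbitrary units, from 0) of the best measured probe set of each gene on the 3 Get1 -/- arrays (red) and the 3 Get1 +/+ arrays (blue), with the marker shape giving the replicate number and the black bar the mean ± SD. The groups do not overlap in any panel, but in Adgrf4 the highest Get1 -/- value (545) and the lowest Get1 +/+ value (549) nearly touch.

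Slc46a2 encodes a membrane transporter of the family of the proton-coupled folate carrier, first described in thymic stroma, which in keratinocytes carries bacterial muropeptides to the sensor Nod1. It read 204, 553 and 389 on Get1 -/- replicates 1, 2 and 3, against 1306, 1909.8 and 1516 on Get1 +/+ replicates 1, 2 and 3. The highest Get1 -/- value was less than the lowest Get1 +/+ value by 1.24 on the log2 scale, the widest such gap among the 10 genes. The means were 382 ± 175 in Get1 -/- skin and 1577 ± 306 in Get1 +/+ skin (SD, n = 3 each), and the log2 difference was -2.14 ± 0.34 (SE). Its second probe set, below the filter, read 12.3, 73.4 and 29.7 in Get1 -/- skin, against 118, 159.6 and 128 in Get1 +/+ skin. Without detection calls these low signals are not known to lie above background, so no fold is taken from them.

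Adgrf4, formerly Gpr115, is an adhesion G protein-coupled receptor known in the mouse for a role in enamel formation by ameloblasts. Its signal was 119.6, 545 and 261 in Get1 -/- skin, against 549, 1129 and 893 in Get1 +/+ skin. Get1 -/- replicate 2 and Get1 +/+ replicate 1 were almost equal, so the separation of the groups is by 0.0095 on the log2 scale. The log2 difference of -1.67 ± 0.50 (SE) had the widest error of the lower genes, and the Get1 -/- values spread over 4.56-fold. It was -1.12 without Get1 -/- replicate 1 and -2.22 without Get1 -/- replicate 2.

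Gdpd3, a glycerophosphodiesterase that releases lysophosphatidic acid from lysophospholipids, read 424, 357 and 696 in Get1 -/- skin, against 1261, 1508 and 1491 in Get1 +/+ skin. The means were 492 ± 179 in Get1 -/- skin and 1420.1 ± 138 in Get1 +/+ skin (SD, n = 3 each), a log2 difference of -1.58 ± 0.25 (SE). The groups lay well apart, and here Get1 -/- replicate 2 was the lowest array, whereas it was the highest Get1 -/- array in each of the other 7 lower genes.

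Adtrp cleaves fatty acid esters of hydroxy fatty acids and was named for its effect on tissue factor pathway inhibitor. It read 385, 733 and 493 in Get1 -/- skin, against 782, 1482 and 1049.5 in Get1 +/+ skin. Its log2 difference of -1.04 ± 0.30 (SE) was the smallest of the 8 in size, and the closest arrays of the 2 genotypes were 0.094 apart on the log2 scale.

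Cpm is carboxypeptidase M, a membrane-anchored enzyme that trims basic residues from the ends of peptides such as kinins and anaphylatoxins. Its brighter probe set read 464, 1079.8 and 779 in Get1 -/- skin, against 1179, 2755 and 1468 in Get1 +/+ skin, a log2 difference of -1.20 ± 0.37 (SE). Its other kept probe set read 293, 669.8 and 485 in Get1 -/- skin, against 511, 949 and 983 in Get1 +/+ skin. There Get1 -/- replicate 2 lay above Get1 +/+ replicate 1, so the genotypes overlapped, and the log2 difference was -0.77 ± 0.35 (SE).

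Elmod1 belongs to a family of activators of GTP hydrolysis by Arf-type small GTPases, and mouse mutants of it are deaf, with defects in the stereocilia of inner ear hair cells. It read 334, 496 and 347 in Get1 -/- skin, against 874, 1261 and 814 in Get1 +/+ skin. The groups were separated by 0.71 on the log2 scale, with a log2 difference of -1.32 ± 0.24 (SE).

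Eps8l1 is a relative of Eps8, an adaptor that links growth factor receptors to Rac and actin. Its brighter probe set read 332, 853 and 561 in Get1 -/- skin, against 968, 1807 and 1109.9 in Get1 +/+ skin, a log2 difference of -1.20 ± 0.35 (SE). The other probe set read 203, 537 and 466 in Get1 -/- skin, against 763, 1386 and 702 in Get1 +/+ skin, a log2 difference of -1.29 ± 0.39 (SE). Neither probe set had overlapping genotypes, and in both Get1 -/- replicate 1 was lowest and Get1 +/+ replicate 2 highest.

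Dapl1 encodes a small protein related to death-associated protein that is found in stratified epithelia early in differentiation. Its signal was 852, 1829 and 1507 in Get1 -/- skin, against 2239.8, 3299 and 2964 in Get1 +/+ skin. The means were 1396 ± 498 in Get1 -/- skin and 2834 ± 541 in Get1 +/+ skin (SD, n = 3 each), with no overlap and a log2 difference of -1.07 ± 0.28 (SE).

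Fetub, fetuin-B, is a secreted protease inhibitor of plasma made by the liver and known for protecting the egg coat from the protease ovastacin before fertilisation. It read 207, 574 and 235 in Get1 -/- skin, against 58.3, 94.4 and 49.1 in Get1 +/+ skin, a log2 difference of 2.23 ± 0.44 (SE). All 3 Get1 +/+ values lay below the filter of 137 and all 3 Get1 -/- values above it, and Get1 -/- replicate 2 alone read more than Get1 -/- replicates 1 and 3 together. The probe set was near the middle of all probe sets by mean signal (percentile 50.3), so it was kept through its Get1 -/- values. With the file giving no detection calls, the Get1 +/+ level is not known to be above background and the fold may be understated.

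Lgi2 is a secreted leucine-rich repeat protein of the LGI family, which at synapses binds receptors of the Adam22 group. Its brighter probe set read 338, 324 and 316 in Get1 -/- skin, against 147, 119 and 166 in Get1 +/+ skin. The Get1 -/- arrays were nearly equal (326 ± 11.2, SD, n = 3), the tightest group among the 10 genes, and the log2 difference was 1.19 ± 0.23 (SE). The second Lgi2 probe set, below the filter, did not show this: it read 113, 73.3 and 91.8 in Get1 -/- skin, against 93.5, 51.9 and 119 in Get1 +/+ skin, a log2 difference of 0.13 with overlapping genotypes. Whether it measures the same transcripts was not tested.

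**Figure D2:**
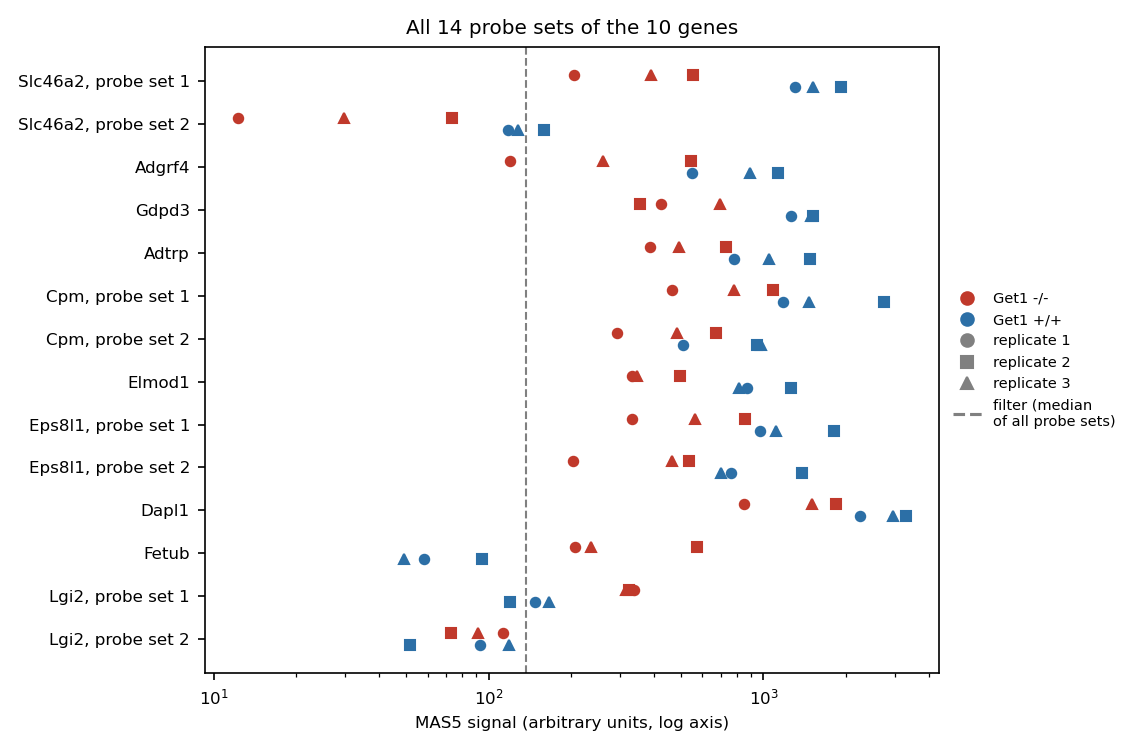
MAS5 signal (x axis, arbitrary units, log axis) on the 3 Get1 -/- arrays (red) and the 3 Get1 +/+ arrays (blue) for all 14 probe sets, with the filter at 137 as a dashed line and the marker shape giving the replicate number. The genotypes do not overlap in either probe set of Slc46a2 and Eps8l1, the second of Cpm overlaps between genotypes, and the second of Lgi2 lies below the filter with a log2 difference of 0.13.

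Of the 4 genes with a pair of probe sets, Slc46a2, Cpm and Eps8l1 had both lower in Get1 -/- skin. The pair of Lgi2 did not agree: the first differed by 1.19, the second by 0.13 with overlapping genotypes, which gives no clear direction. The pairs of Eps8l1 and Cpm, all above the filter, correlated over the 6 arrays at 0.979 and 0.905 on the log2 scale. For Slc46a2 and Lgi2, whose second probe sets lay below the filter, these correlations were 0.97 and 0.37. These values share the contrast between genotypes.

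The arrays of a genotype differed from each other in a similar way for most of these genes. In 7 of the 8 lower genes, all but Gdpd3, Get1 -/- replicate 1 was the lowest and replicate 2 the highest Get1 -/- array. Their deviations from the genotype mean, in log2 units, ran from -1.10 to -0.21 on Get1 -/- replicate 1 and from 0.36 to 1.08 on replicate 2. Among the Get1 +/+ arrays replicate 2 was the highest for all 8 lower genes, with deviations of 0.24 to 0.71 in those 7. Replicate 1 was the lowest Get1 +/+ array for 7 of the 8, all but Elmod1, where replicate 3 was lowest.

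Over the 21 pairs of these 7 genes, the deviations correlated at between 0.658 and 0.979 (Pearson's r, 6 arrays, with the genotype difference removed). Grhl3 itself deviated likewise, at 0.739 to 0.963 with the 7. Gdpd3 correlated with the 7 only at -0.331 to 0.144. It shared their order of highest and lowest array in Get1 +/+ skin except with Elmod1. In Get1 -/- skin it had replicate 2 lowest and replicate 3 highest. Fetub, although higher in Get1 -/- skin, deviated within genotypes in the same sense as the 7 lower genes, at 0.711 to 0.961. Lgi2 deviated the other way, at -0.728 to -0.179 with the 8 lower genes. These are descriptions of 6 arrays that share their scaling and RNA.

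**Figure D3:**
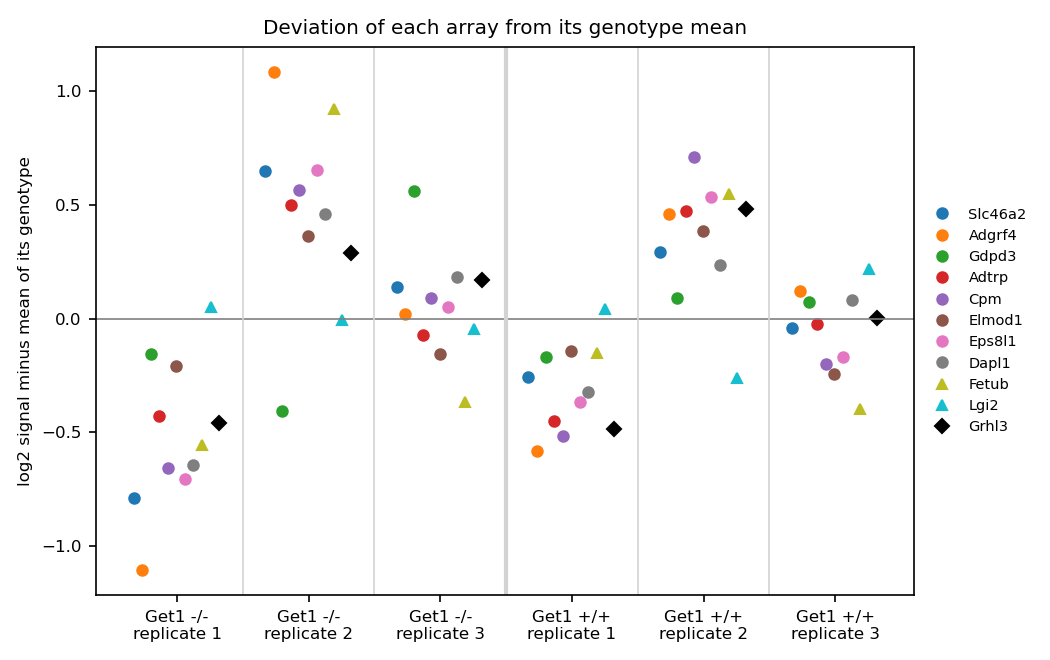
Deviation of log2 signal from the mean of its genotype (y axis) on each array (x axis) for the 8 lower genes (circles), Fetub and Lgi2 (triangles) and Grhl3 (black diamonds). Circles other than Gdpd3 lie below 0 on replicate 1 of both genotypes and above 0 on replicate 2 of both.

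Markers of cell types were set beside this pattern. All 8 suprabasal keratinocyte markers, from Krt1 and Krt10 to Lor and Sbsn, were lower in Get1 -/- skin, with a median log2 difference of -0.40, and 0 of them passed the threshold of the fit. Their summed signal was 116309, 136258 and 154849 on the Get1 -/- arrays, against 169041, 169206 and 156849.9 on the Get1 +/+ arrays. The sums did not overlap, but the closest, 154849 and 156849.9, were near each other, and a sum is led by its probe sets of highest signal. Taken singly, Lor, Sbsn and Krtdap were lower without overlap, as were 6.51% of all kept probe sets, and the other markers of this list overlapped. The median log2 difference of the 8 lower genes was -1.26. The 6 basal keratinocyte markers had a median of -0.12 and sums that overlapped, at 52537 to 55242 in Get1 -/- skin and 53793 to 65291 in Get1 +/+ skin.

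Within genotypes, the mean deviation of the 8 lower genes correlated with that of the suprabasal markers at r = 0.793 (6 arrays). With the 4 measured adipocyte markers r was 0.946, and with the 10 skeletal muscle markers it was -0.754. These were the values largest in size among all the marker lists compared. The other lists ran from -0.123 (dermal fibroblast) to 0.501 (Schwann cell and nerve), with hair follicle at 0.041 and melanocyte at -0.114. The adipocyte sums were 20424 to 28765 in Get1 -/- skin and 18813 to 27087 in Get1 +/+ skin, and the muscle sums 103119 to 152446 in Get1 -/- skin and 84472 to 130737 in Get1 +/+ skin, so both overlapped between genotypes. Muscle markers were higher in Get1 -/- skin for 10 of 10, with a median log2 difference of 0.52. Hair follicle markers were lower for 6 of 7 (median -0.66), with sums of 10811 to 15839 in Get1 -/- skin and 12978 to 30311 in Get1 +/+ skin. Melanocyte markers were lower for 5 of 5 (median -0.54), with sums of 5790.5 to 7793 in Get1 -/- skin and 6805 to 11993 in Get1 +/+ skin. Of the 7 macrophage and lymphoid markers 5 were higher (median 0.18), with sums of 7299.8 to 8526 in Get1 -/- skin and 5388 to 8074 in Get1 +/+ skin. Ptprc, C1qa and Adgre1 were higher without overlap, by 0.99, 0.64 and 0.22 on the log2 scale. Csf1r (0.18) and Cd68 (-0.25) overlapped between genotypes, and Cd3e and Cd207 lay below the filter. Of the 10 muscle markers 3 were also higher without overlap, as were 4.63% of all kept probe sets. No measured marker of the other lists named here was below the filter. The part of these cell types in the differences was not tested.

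The beta-actin control probe set separated the arrays into 3 with signals of 18407 to 19858 (Get1 -/- replicate 1 and Get1 +/+ replicates 1 and 2) and 3 with signals of 10118 to 13059.6 (Get1 -/- replicates 2 and 3 and Get1 +/+ replicate 3). Log2 differences of the 8 lower genes were -2.95 to -1.48 in the first set and -1.71 to -0.68 in the second, and larger in size in the first for each of the 8. Because the genotypes do not overlap in these genes, the direction within a set is fixed by how the genes were chosen. The sizes are not separate results for each gene. Get1 -/- replicate 1, the only Get1 -/- array of the first set, was the lowest Get1 -/- array in 7 of the 8. The differences were 1.48 in the first set and 2.90 in the second for Fetub, and 1.35 in the first and 0.95 in the second for Lgi2. Each of these values rests on a single array of one genotype.

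Relatives and partners of the 10 genes, which were not used to choose them, were tested in the fit across all kept probe sets. Their list was drawn up with earlier results of these data known. Of 62 such genes 37 were kept, 17 lay below the filter and 8 had no probe set that names them alone. At an adjusted p under 0.05 (limma, Benjamini-Hochberg), 0 of the 37 rose and 0 fell, where 0.0266% of all kept probe sets passed, 6 of 22519, or 35 with the replicate number as a block. Without Get1 +/+ replicate 1 that count was 25. With so few calls across the array, 0 of 37 is near the general share and says little about the relatives. The smallest adjusted p among the 37 was 0.737, and 7 had an unadjusted p under 0.05, 5 of them lower, where 6.72% of all kept probe sets had such a p and 3.76% had it with a lower value. The median log2 difference of the 37 was 0.02, against 0.0015 over all kept probe sets.

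Paralogs and close partners gave the following values. Eps8l2, a paralog of Eps8l1, had the smallest p of all, with 1006 ± 248 in Get1 -/- skin and 1752 ± 390.3 in Get1 +/+ skin (SD, n = 3 each), a log2 difference of -0.81 ± 0.23 (SE, limma adjusted p = 0.737), while Eps8 differed by 0.27 ± 0.19. Slc46a1, the folate transporter of the family, differed by -0.82 ± 0.30, but its relative Slc46a3 by 0.11 ± 0.44. Nod1, which senses muropeptides, differed by -0.17 ± 0.17. Gdpd2 and Gdpd1, enzymes of the Gdpd3 family, differed by -0.54 ± 0.20 and -0.55 ± 0.23. The other kept relatives of Gdpd3, Gdpd5 and Gde1, differed by 0.03 ± 0.19 and -0.02 ± 0.19, so the family did not shift as a whole. The values of Sos1, an activator of Ras and Rac, and of Lpar4, a receptor for lysophosphatidic acid, were higher, by 0.84 ± 0.28 and 1.19 ± 0.48. Lpar4 overlapped between genotypes, with 525 on Get1 -/- replicate 1 and 771 on Get1 +/+ replicate 1. The other kept receptors of this kind, Lpar1 and Lpar6, differed by 0.31 ± 0.25 and -0.21 ± 0.21.

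For all of these the limma adjusted p without the block was at least 0.737. Cpe, a carboxypeptidase that matures peptide hormones, differed by -0.36 ± 0.14, Adgrf5 by 0.11 ± 0.17, and Dap, the relative of Dapl1, by -0.04 ± 0.14. Tfpi, the inhibitor after which Adtrp is named, differed by 0.40 ± 0.24, the Lgi receptor Adam22 by 0.39 ± 0.25, and the GTPase Arf6 by -0.30 ± 0.17. All the relatives of Fetub that were measured, Ahsg, Hrg and Kng1, lay below the filter in both genotypes, with means of 15.4 to 36.2 in Get1 -/- skin and 9.24 to 35.6 in Get1 +/+ skin, as did its target Astl. Lgi1, Lgi3 and Lgi4 were below the filter too.

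**Figure D4:**
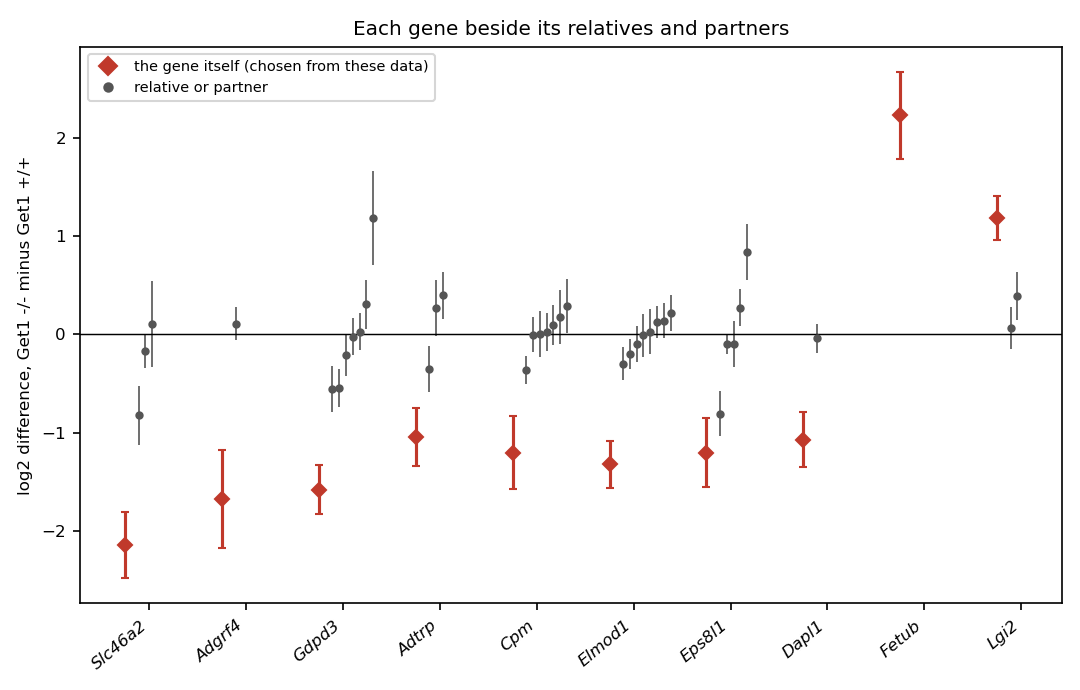
Log2 difference, Get1 -/- minus Get1 +/+ (y axis), for each of the 10 genes (red diamonds) and for its kept relatives and partners (grey circles), with bars of 1 SE from limma. The red points were chosen from these data and lie at -2.14 to -1.04 or at 1.19 and 2.23, and 0 of the 37 grey points passed the threshold.

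Genes with the most similar signal over the 6 arrays were taken from 11386 named genes, by Pearson's r of log2 signal with no test. Nearest to Slc46a2 were Enkd1 (0.995) and Ppl (0.994), which encodes the cornified envelope scaffold periplakin. Nearest to Dapl1 were Dnase1l2 (0.997), a nuclease of the cornifying epidermis and its appendages, and Cfap57 (0.996). Dnase1l2 averaged 296 ± 154 in Get1 -/- skin and 869 ± 259 in Get1 +/+ skin (SD, n = 3 each), and Ppl averaged 2512 ± 508 in Get1 -/- skin and 4527 ± 654 in Get1 +/+ skin (SD, n = 3 each).

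Adtrp was most like Cptp (0.999), a transfer protein for ceramide 1-phosphate, and Dmkn (0.997), which encodes dermokine of the upper epidermis. Eps8l1 was most like Map2k6 and Ggct, both at 0.999, Adgrf4 like Blnk and Rad23b, and Cpm like Zswim4 and Prpf18. Elmod1 was most like Atp10b and Plekha6, and Gdpd3 like Acbd6 and Tmem183a. For Fetub these were 1110059E24Rik (0.981) and Ikzf1 (0.978), and for Lgi2 Bivm (0.992) and Sdhaf3 (0.991). These correlations include the difference between genotypes, and the arrays share their scaling.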

How the data were processed

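Gene expression was measured with 1-colour oligonucleotide arrays in back skin of 3 Get1 -/- and 3 Get1 +/+ embryos, grouped by the sample titles. Per the labels' protocols, RNA was purified with TRIzol and a spin column, and biotin-labelled cRNA was made with a T7 promoter primer. The deposited values are linear signal intensities made with MAS5, per the submitters' processing notes, and the version and the genome build are not given in the sources used here. The 2% trimmed mean was 500.002 to 500.003 on every array, so no further scaling was applied. Probe sets were named from the platform annotation: 34945 of 45037 carried 1 symbol, 932 several and 9160 none. The symbols of all 10 genes matched the RefSeq table of GRCm38.p6, which was used for names, chromosomes, gene order and promoter sequence.

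After removal of 64 control probe sets and log2 transformation, probe sets with a mean at or above the median over all were kept. The fit was limma 3.58.1 under R 4.3.3 (eBayes with trend, genotype as the factor, two-sided, Benjamini-Hochberg over 22519 probe sets, threshold 0.05), tested beforehand on simulated data. Each gene is represented by its probe set with the highest mean. SE are those of this fit, and the number of arrays limits the precision. The labels do not say that replicates differ in litter or day. Deviations of same-numbered arrays correlated at 0.133, 0.26 and 0.14 over the kept probe sets, above the limit of 0.1, so the numbers were treated as possible pairs from the data alone, and the fit with that block is given where it moves a count. The genes, the lists of relatives and markers, and the actin grouping were chosen with earlier results of these data known. Named besides the 10 genes and Grhl3 are the relative or partner of each with the smallest p (others were chosen after their values were seen), and the 2 genes most like each. As alternatives, arrays were quantile normalized or centred on the median, the filter was dropped or set at the 70th percentile, 37.5 was added before log2, and eBayes was run without trend. Array weights, the replicate block, the actin set as a block, omission of each array and averaging of the kept probe sets per gene were also tried.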

Additional observations from a re-analysis of the deposited data

How the results depend on the processing

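Of 147 recomputed log2 differences of the 10 genes over 15 alternatives, 146 moved by less than the spread between replicates. The exception was Lgi2 with the offset (1.01). Many of the 147 could not move, so the count overstates how far the differences were tried. A change of filter or the replicate block leaves a difference as it is. So does averaging for a gene with a single kept probe set, and median centring shifts every gene by the same amount. Leaving out 1 array gave -2.47 to -1.75 for Slc46a2, -2.22 to -1.12 for Adgrf4 and -1.30 to -0.75 for Dapl1. It gave -1.53 to -0.85 for Eps8l1 and 1.77 to 2.51 for Fetub. The extremes of these came from Get1 -/- replicates 1 and 2. For Adtrp the range was -1.29 to -0.81, for Cpm -1.48 to -0.85 and for Elmod1 -1.50 to -1.13, each smallest in size without Get1 +/+ replicate 2. Gdpd3 gave -1.86 to -1.38 and Lgi2 1.06 to 1.30. The differences of Adtrp, Cpm, Eps8l1 and Dapl1 could thus fall below 2-fold when 1 array was left out. The number of lower genes without overlap was 8, and 5 with median centring, where Adgrf4, Adtrp and Cpm overlapped. Array medians differed by up to 0.163 on the log2 scale, with a mean difference between genotypes of -0.0046. Quantile normalization gave 7, with Adgrf4 overlapping, and the mean of probe sets gave 7, with Cpm overlapping. The 2 higher genes became 1 with quantile normalization and 0 with the stricter filter, because Fetub and then both fell below the filter. Leaving out an array cannot make groups overlap, so these counts are not tested by it. Among relatives and partners 0 passed under every alternative, including the replicate block, but few of all probe sets passed under any of them. The count of all probe sets past the threshold was 6, and 13 with median centring, 35 with the replicate block and 4 to 25 when 1 array was left out, 25 being the value without Get1 +/+ replicate 1. The causes of these shifts in counts of calls were not tested. Signals near or below 137, as for Fetub and Lgi2 in Get1 +/+ skin and the second probe sets of Slc46a2 and Lgi2, have no detection calls, which limits what can be read from them.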
